A study of Mus musculus with 16 samples.

Results

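The comparison of mutant Twinkle with wild type in the cerebellum rests on 8 of the 16 arrays of the series, 4 from each genotype, chosen by sample title. The other 8 arrays are of hippocampus. The mutant mice overexpressed a mutant form of Twinkle and model progressive external ophthalmoplegia, a muscle disease with deletions of mitochondrial DNA. The promoter of the transgene and the mutation it carries are not stated in the labels. In order of replicate number the mutants were 24, 24, 21 and 21 months old, and the wild types were 26, 24, 21 and 23 months old. The labels call the replicates biological, and do not say which cerebellum and hippocampus samples came from the same animal. Total RNA was hybridised to Affymetrix arrays, and 18168 genes were compared. Each deposited value is a log value relative to the median of the 8 arrays of its region, so it gives no level of expression and the tissue label could not be checked against marker levels. The base of the log is not stated. It was taken as 2, and every difference below would be multiplied by 1.44 if the base were e. Differences are given as mutant minus wild type on this scale. One result of the centring is that, where the groups do not overlap, the nearest mutant and wild-type values lie at about equal distances on either side of 0.

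Twinkle, encoded by Twnk, is a helicase that opens mitochondrial DNA ahead of its polymerase. Faulty Twinkle stalls replication and, in muscle and in some neurons, leads to deleted mitochondrial genomes and to cells with weak cytochrome c oxidase, whose core subunits that genome encodes. In muscle, such a defect is known to go with an integrated stress response, marked by Fgf21, Atf4 and the enzymes of serine and one-carbon metabolism. Purkinje cells, the large output neurons of the cerebellar cortex, are among the neurons known to be sensitive to respiratory failure.

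The arrays were not equal in quality measures. The 24 probe sets for poly-A spike-ins, RNAs added before labelling, averaged 0.62 on mutant replicate 2 and 0.66 on mutant replicate 4. On the other 6 cerebellum arrays they lay between -0.22 and 0.05. The 14 hybridisation spike-in probe sets averaged -0.83 on wild-type replicate 4 and between -0.09 and 0.28 elsewhere. The spread of values over probe sets was widest on wild-type replicate 3, with an SD of 0.185, and 0.114 to 0.160 on the others. No principal component of the 8 arrays set the genotypes apart among the first 3, of which the largest held 27.4% of the variance. The difference between the genotype means took 14.1% of the sum of squares over all genes, and 1 of 7 degrees of freedom corresponds to 14.3%.

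No gene passed the test for a difference between mutant and wild-type cerebellum. In limma, with Benjamini-Hochberg adjustment over 18168 genes, 0 genes (0.0%) had an adjusted p under 0.05, and the smallest adjusted p was 0.884. At an unadjusted p under 0.05 there were 979 genes (5.39%), of which 572 (3.15%) were higher and 407 (2.24%) lower in mutants. The values of the 4 mutants and the 4 wild types did not overlap for 447 genes (2.46%), with 262 (1.44%) higher and 185 (1.02%) lower in mutants. A difference above 0 was seen in 53.6% of genes, and the median difference was 0.0074. The unadjusted count depended on single arrays, and ran from 541 without mutant replicate 2 to 1512 without mutant replicate 3.

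The differences were small. Their 1st and 99th percentiles were -0.22 and 0.22, and their median SE was 0.074. The 95% interval of the difference lay within 0.5 of 0 for 97.1% of genes. Only 11 genes differed by more than 0.5 in either direction and 0 by more than 1. Among those 11, the groups did not overlap for 1 gene, Alas2.

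**Figure D1:**
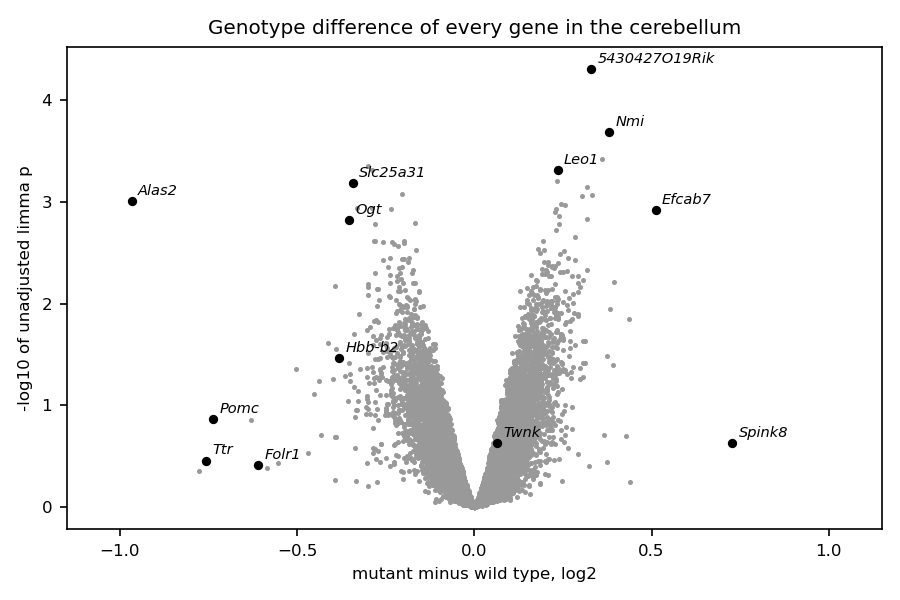
Each point is 1 of the 18168 genes in the cerebellum. The x axis is the difference between the means of 4 mutants and 4 wild types (log2) and the y axis is -log10 of the unadjusted limma p. Named genes are in black. Alas2 lies at -0.97, apart from genes such as Ttr, Pomc and Spink8, whose wide differences have a large p, and Twnk lies at 0.06.

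The transgene's own gene did not stand out. Twnk, read by 1 probe set, lay at -0.00, 0.01, 0.11 and -0.01 in mutants 1 to 4 and at -0.01, -0.15, 0.01 and 0.00 in wild types 1 to 4. The groups overlapped, and the difference was 0.06 (SE 0.051, 95% interval -0.05 to 0.17, adjusted p = 0.915). Which part of the transcript the probe set covers, and whether the transgene's RNA carries it, was not examined, so Twnk does not check the genotype labels here.

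Genes that copy and transcribe mitochondrial DNA lay on average slightly higher in mutants, with 20 of 26 measured members above 0 and a median difference of 0.061, beside 53.6% and 0.0074 for all genes. None had an unadjusted p under 0.05, beside 5.39% of all genes. Tfam, which packages mitochondrial DNA and starts its transcription, differed by 0.10 (95% interval -0.02 to 0.23). Polg, the catalytic subunit of the mitochondrial DNA polymerase, differed by -0.07 (-0.22 to 0.08). Ssbp1, the single-strand binding protein that works beside Twinkle, differed by 0.05 (-0.07 to 0.18), and Polrmt, the mitochondrial RNA polymerase, by -0.06 (-0.20 to 0.07). The 5 probe sets of Ssbp1 lay apart, at -0.091, -0.033, 0.04, 0.173 and 0.176. Atad3a, a membrane ATPase associated with mitochondrial nucleoids, differed by 0.15 (SE 0.082), with all 4 of its probe sets above 0. Mterf2, of the mitochondrial transcription termination factor family, was high on mutants 2 and 4, at 0.24 and 0.36, and at 0.06 and -0.14 on mutants 1 and 3. Its difference of 0.18 came to 0.0051 without mutants 2 and 4, the arrays with high poly-A spike-in values. The median of the whole list was 0.0057 without them.

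Nucleotide supply for mitochondrial DNA, which in cells that no longer divide relies on salvage and on the p53-induced reductase subunit, had 15 of 20 members above 0 and a median of 0.055. Rrm2b, that subunit, lay at -0.05, 0.27, -0.09 and 0.15 in mutants and at 0.01, -0.12, -0.01 and -0.07 in wild types. The groups overlapped, and the difference of 0.12 (SE 0.095) was -0.02 without mutants 2 and 4. Dguok, which phosphorylates deoxyguanosine in mitochondria, differed by 0.12 (SE 0.069). The array held 1 measured gene of the mitochondrial genome itself, ND5, a subunit of complex I. It differed by -0.07 (95% interval -0.20 to 0.06).

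Among genes higher in mutants, the smallest unadjusted p belonged to 5430427O19Rik, a gene with a clone-based name. It lay at 0.05, 0.35, 0.20 and 0.17 in mutants and at -0.19, -0.05, -0.22 and -0.08 in wild types. The groups did not overlap, and the difference was 0.33 (SE 0.061, adjusted p = 0.884). The same adjusted p holds for the other 23 genes of smallest p, 12 in each direction.

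Nmi, an interferon-inducible partner of Myc and STAT proteins, lay at 0.20, 0.17, -0.01 and 0.30 in mutants and at 0.01, -0.33, -0.31 and -0.24 in wild types. One mutant and one wild type met near 0, and the difference was 0.38 (SE 0.080). Leo1, a subunit of the Paf1 complex that travels with RNA polymerase II, lay at 0.12, 0.13, 0.09 and 0.06 in mutants. Its wild-type values were -0.06, -0.13, -0.11 and -0.24, so the groups did not overlap, and the difference was 0.24 (SE 0.054). Trex2, a DNA exonuclease, had tight groups, at 0.11 to 0.13 in mutants and -0.19 to -0.11 in wild types, with a difference of 0.26 (SE 0.065).

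Efcab7, a ciliary protein that acts in Hedgehog signalling, had the widest difference of the 12, 0.51 (SE 0.131). Its wild-type values ran from -0.64 to 0.03 and its mutant values from -0.03 to 0.40. B3gnt8, an enzyme that extends glycan chains, differed by 0.36 (SE 0.081), Zfp472, a zinc finger protein, by 0.32 (SE 0.076) and Ccr3, a chemokine receptor, by 0.30 (SE 0.075), each without overlap. The groups also did not overlap for 1700017N19Rik, at 0.33 (SE 0.082), and for Dnajb13, a J-domain protein of motile cilia, at 0.24 (SE 0.061). They overlapped for Tmem263, at 0.23 (SE 0.055), and Ccdc174, at 0.23 (SE 0.058). Each of the 12 had a single probe set apart from Tmem263, which had 2, at 0.20 and 0.26.

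The largest higher differences without overlap also took in Calhm5, S100a8, Ifitm6 and Cdh1. Calhm5, of the family of calcium homeostasis modulator channels, differed by 0.37 (SE 0.160). S100a8, a calcium-binding protein of neutrophils, differed by 0.37 (SE 0.272), and its value on mutant 2 was 0.61 against 0.03 to 0.09 on the other mutants. Ifitm6, of the interferon-induced transmembrane family, differed by 0.32 (SE 0.084). Cdh1, the epithelial cadherin, differed by 0.31 (SE 0.147).

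**Figure D2:**
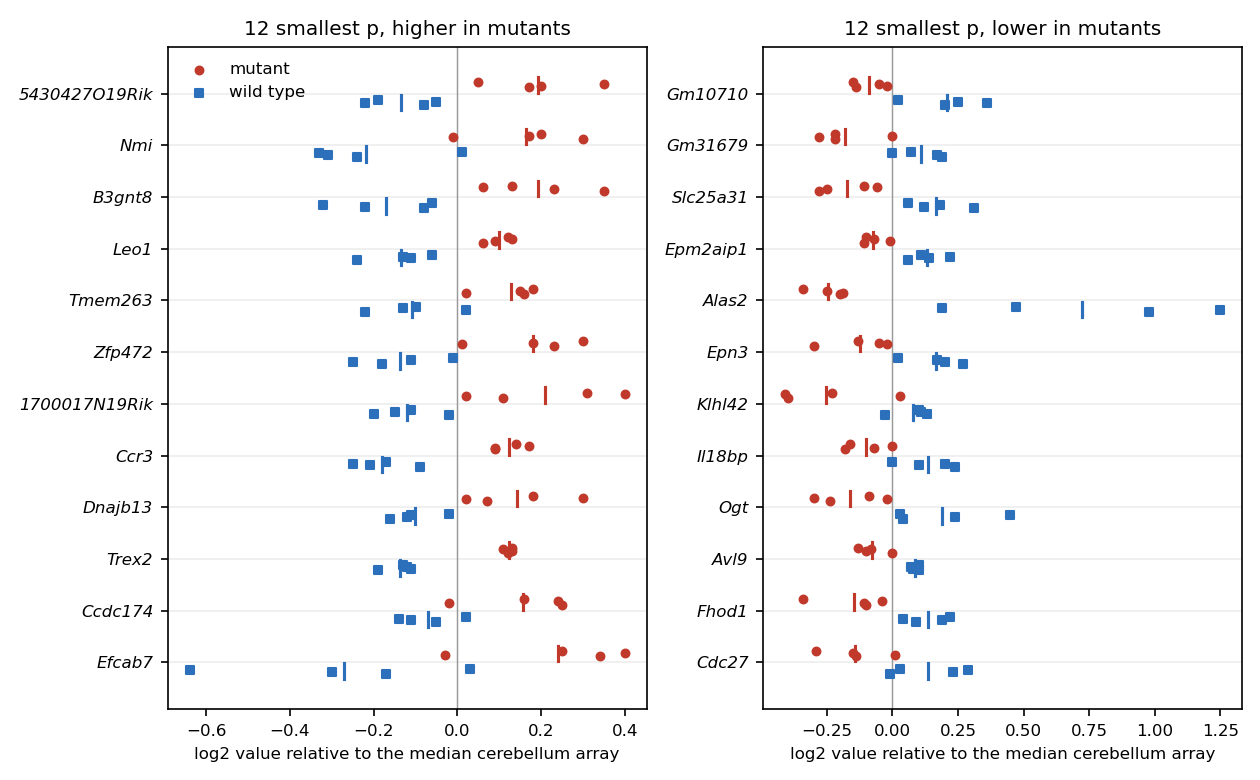
The 12 genes of smallest unadjusted p in each direction. Circles are the 4 mutant arrays, squares the 4 wild-type arrays and vertical bars the group means, and the x axis is the deposited log2 value relative to the median cerebellum array. Most differences lie between 0.17 and 0.51, and Alas2, at 0.19 to 1.25 in wild types and -0.34 to -0.19 in mutants, is the widest.

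Among genes lower in mutants, Alas2 had the largest difference of any gene, -0.97 (SE 0.242, 95% interval -1.48 to -0.46). Alas2 encodes the mitochondrial enzyme that starts haem synthesis in red cell precursors. It lay at -0.34, -0.25, -0.19 and -0.20 in mutants and at 0.47, 0.19, 1.25 and 0.98 in wild types. All 4 wild types were above all 4 mutants, and wild types 3 and 4 were highest. In the hippocampus arrays, which may share the animals, mutants lay at -0.66 to -0.27 and wild types at 0.27 to 1.54, and wild types 3 and 4 were again highest. The difference there was -1.19. In neither region did Alas2 pass the adjusted threshold.

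Other red cell genes differed less. Hbb-b2, an adult beta globin, lay at -0.09, -0.02, -0.18 and -0.24 in mutants and at 0.26, 0.00, 0.49 and 0.23 in wild types. The groups did not overlap, and the difference was -0.38 (SE 0.165), with its 2 probe sets at -0.15 and -0.61. Probe sets of globins can share sequence with other members of the family, so these values are uncertain. Hba-a1 and Hba-a2, the adult alpha globins, differed by -0.02 (SE 0.094) and 0.09 (SE 0.078), and Slc4a1, the red cell anion exchanger, by 0.03 (SE 0.053). Of 12 haem synthesis genes, 8 lay below 0, with a median of -0.041. Alas1, the form of the first enzyme used outside red cells, differed by 0.03. Ferrochelatase, from Fech, which inserts the iron, differed by -0.01. The list of 20 blood cell genes had a median of 0.025, with 12 above 0, and -0.0073 without wild type 3. In whole tissue, fewer cells of a type and less RNA per cell cannot be told apart.

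**Figure D3:**
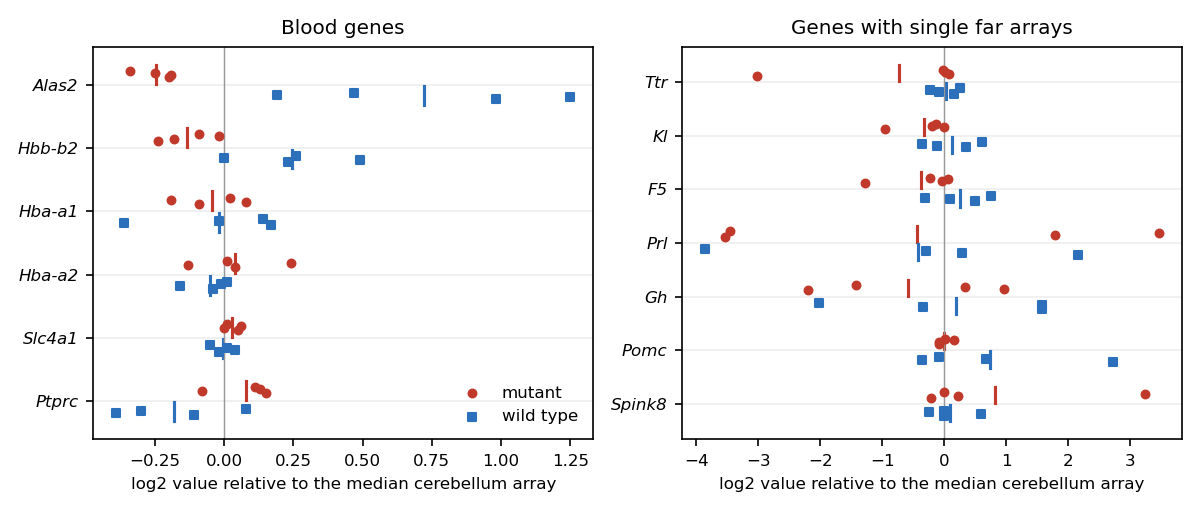
Values of blood genes (left) and of genes with single distant arrays (right) on the 4 mutant arrays (circles) and 4 wild-type arrays (squares), with group means as bars and the log2 value relative to the median cerebellum array on the x axis. Alas2 and Hbb-b2 are lower in mutants without overlap, while Hba-a1, Hba-a2 and Slc4a1 overlap. Ttr is at -3.02 on 1 mutant array and Spink8 at 3.24 on another.

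Ogt, which attaches N-acetylglucosamine to nuclear and cytosolic proteins, was read by 5 probe sets, all below 0, from -0.61 to -0.17. It lay at -0.09, -0.30, -0.02 and -0.24 in mutants and at 0.03, 0.45, 0.24 and 0.04 in wild types, without overlap. The difference was -0.35 (SE 0.093), and -0.24 without mutants 2 and 4. Slc25a31, a testis-enriched ADP/ATP carrier of the inner mitochondrial membrane, lay at -0.11, -0.06, -0.25 and -0.28 in mutants. In wild types it lay at 0.06, 0.18, 0.12 and 0.31, without overlap, and the difference was -0.34 (SE 0.082). Its probe set is single, and with no level in the data it is not known whether the gene was above background.

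The rest of the 12 lower genes were Gm10710, at -0.30 (SE 0.068), Gm31679, at -0.29 (SE 0.067), Epm2aip1, Klhl42, Epn3, Il18bp, Avl9, Fhod1 and Cdc27. Epm2aip1, a partner of laforin, lay below 0 in all 4 probe sets and differed by -0.20 (SE 0.050) without overlap. Avl9, with a role in late secretory transport, differed by -0.17 (SE 0.044), again with all 4 probe sets below 0 and no overlap. Cdc27, a subunit of the anaphase-promoting complex, differed by -0.28 (SE 0.078) over 4 probe sets, all below 0, and its groups overlapped.

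Single probe sets gave the other lower values. Il18bp, the soluble inhibitor of interleukin 18, differed by -0.24 (SE 0.060), and Klhl42, a substrate adaptor of cullin ligases, by -0.33 (SE 0.084), both with overlap. Fhod1, a formin that acts on actin, differed by -0.28 (SE 0.075), and Epn3, an epsin of endocytosis, by -0.29 (SE 0.074), both without. Sox8, a transcription factor of glia, differed by -0.37 (SE 0.174), with mutant 1 lowest at -0.57. Zfhx2os, an antisense transcript, differed by -0.32 (SE 0.147).

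Nuclear genes of the mitochondrial ribosome, which translates the RNAs of the mitochondrial genome, lay higher in mutants in 71 of 77 measured members, with a median of 0.081. At an unadjusted p under 0.05 there were 8 of 77 higher, beside 3.15% of all genes, and 0 lower, beside 2.24%. Groups did not overlap for 5, all higher, beside 1.44% of all genes. As list means by array, mutants stood at -0.02, 0.10, -0.01 and 0.08 and wild types at 0.04, -0.12, -0.02 and -0.05. Mutants 2 and 4 were the high arrays and wild type 2 the low one, so that the groups overlapped. Mutants 2 and 4 are also the arrays with high poly-A spike-in values, and without them 57 of 77 members lay above 0, with a median of 0.034. Whether what moved the spike-in signal also moved these genes was not tested.

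Mrps35, of the small subunit, lay at 0.00, 0.21, 0.01 and 0.27 in mutants and at -0.00, -0.27, -0.13 and -0.06 in wild types. The groups touched without overlapping, and the difference was 0.24 (SE 0.074), or 0.13 without mutants 2 and 4. Mrpl32, of the large subunit, whose maturation by a membrane protease is a step in ribosome assembly, differed by 0.17 (SE 0.055) with overlap. Mrpl36 differed by 0.19 (SE 0.078) and Mrps18c by 0.18 (SE 0.078). Mtif3, the initiation factor of mitochondrial translation, differed by 0.19 (SE 0.068), and Mtrf1l, a release factor, by 0.21 (SE 0.122). In the wider list of translation factors and tRNA synthetases, 19 of 23 lay above 0, with a median of 0.039, or 0.0025 without mutants 2 and 4.

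The promoters of Mrpl32 and Mrpl36 are shown as examples; both genes were chosen after their values were seen. Each window runs from 250 bases before to 50 bases after the start in RefSeq, build GRCm38.p6, and capitals mark matches on either strand. The motifs searched were the E-box CACGTG, the ETS site CCGGAAG and the NRF1 half-site TGCGCA. Mrpl32 at chr13:14612988-14613287, minus strand, holds the NRF1 half-site at 4 places, from -203 to -67 relative to the start. Mrpl36 at chr13:73330759-73331058, plus strand, holds an E-box at -43 and an NRF1 half-site at 7.
Mrpl32: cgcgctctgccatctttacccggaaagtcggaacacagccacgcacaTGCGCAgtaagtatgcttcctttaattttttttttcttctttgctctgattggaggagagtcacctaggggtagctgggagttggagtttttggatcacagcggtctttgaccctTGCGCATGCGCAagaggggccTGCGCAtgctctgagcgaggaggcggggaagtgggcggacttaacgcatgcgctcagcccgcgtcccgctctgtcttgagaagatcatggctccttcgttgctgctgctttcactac
Mrpl36: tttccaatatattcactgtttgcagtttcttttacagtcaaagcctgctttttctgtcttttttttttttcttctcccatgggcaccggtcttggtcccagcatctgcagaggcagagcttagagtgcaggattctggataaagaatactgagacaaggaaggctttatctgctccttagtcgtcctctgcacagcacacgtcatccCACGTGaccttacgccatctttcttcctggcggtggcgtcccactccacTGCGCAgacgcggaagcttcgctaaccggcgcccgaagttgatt
Of the 67 mitochondrial ribosome genes with a promoter in the table, 21 (31.3%) held the NRF1 half-site, 25 (37.3%) the ETS site and 5 (7.46%) the E-box. Among all 27025 genes of that table the shares were 8.79%, 9.93% and 8.09%. The cytosolic ribosome genes held the ETS site in 20 of 40. Some other lists came near the NRF1 half-site share, such as complex I (9 of 32, 28.1%) and synaptic vesicle and release genes (8 of 29, 27.6%). Others held fewer, down to 0.0% in lists such as the potassium channels. A match describes these letters only, and the matches were not related to the differences.

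Respiratory chain genes lay the same way. Complex I, the entry point for electrons from NADH, had 31 of 36 members above 0 and a median of 0.058, and complexes II to V had 32 of 42 and 0.030. Assembly factors of the complexes had 35 of 37 above 0, with a median of 0.086. Without mutants 2 and 4 these medians were 0.021, 0.015 and 0.028, with 25 of 36, 28 of 42 and 21 of 37 members above 0. Without wild type 2 alone the medians were 0.032, 0.015 and 0.052. Ndufb3, an accessory subunit of complex I, differed by 0.13 (SE 0.050) and Ndufs4, another, by 0.11 (SE 0.058). Cox7c, of cytochrome c oxidase, lay at 0.22, 0.13, -0.08 and 0.23 in mutants and at -0.14, -0.03, 0.03 and -0.22 in wild types. The groups overlapped through mutant 3, and the difference was 0.22 (SE 0.092). Sdhd, an anchor of complex II, differed by 0.14 (SE 0.063) and Cycs, cytochrome c, by 0.13 (SE 0.060). Cox11, a copper chaperone of cytochrome c oxidase, differed by 0.12 (SE 0.050), Surf1, which helps build that enzyme, by 0.13 (SE 0.062) and Ndufaf1, of complex I assembly, by 0.16 (SE 0.079).

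Protein import, which brings these nuclear products into the organelle, had 23 of 27 members above 0 and a median of 0.069. That median was 0.026 without mutants 2 and 4 and 0.041 without wild type 2 alone. Timm17a and Timm21, of the inner membrane translocase, differed by 0.15 (SE 0.066) and 0.15 (SE 0.062). Pmpcb, of the peptidase that cuts off targeting signals, differed by 0.13 (SE 0.065), or 0.01 without mutants 2 and 4. Chaperones and proteases of mitochondria had 15 of 21 above 0 and a median of 0.050, which was 0.0083 without those arrays. Fusion, fission and cristae genes had 18 of 21 above 0, with a median of 0.039, and 12 of 21 with 0.0065 without those arrays. Without wild type 2 alone their median was 0.022.

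**Figure D4:**
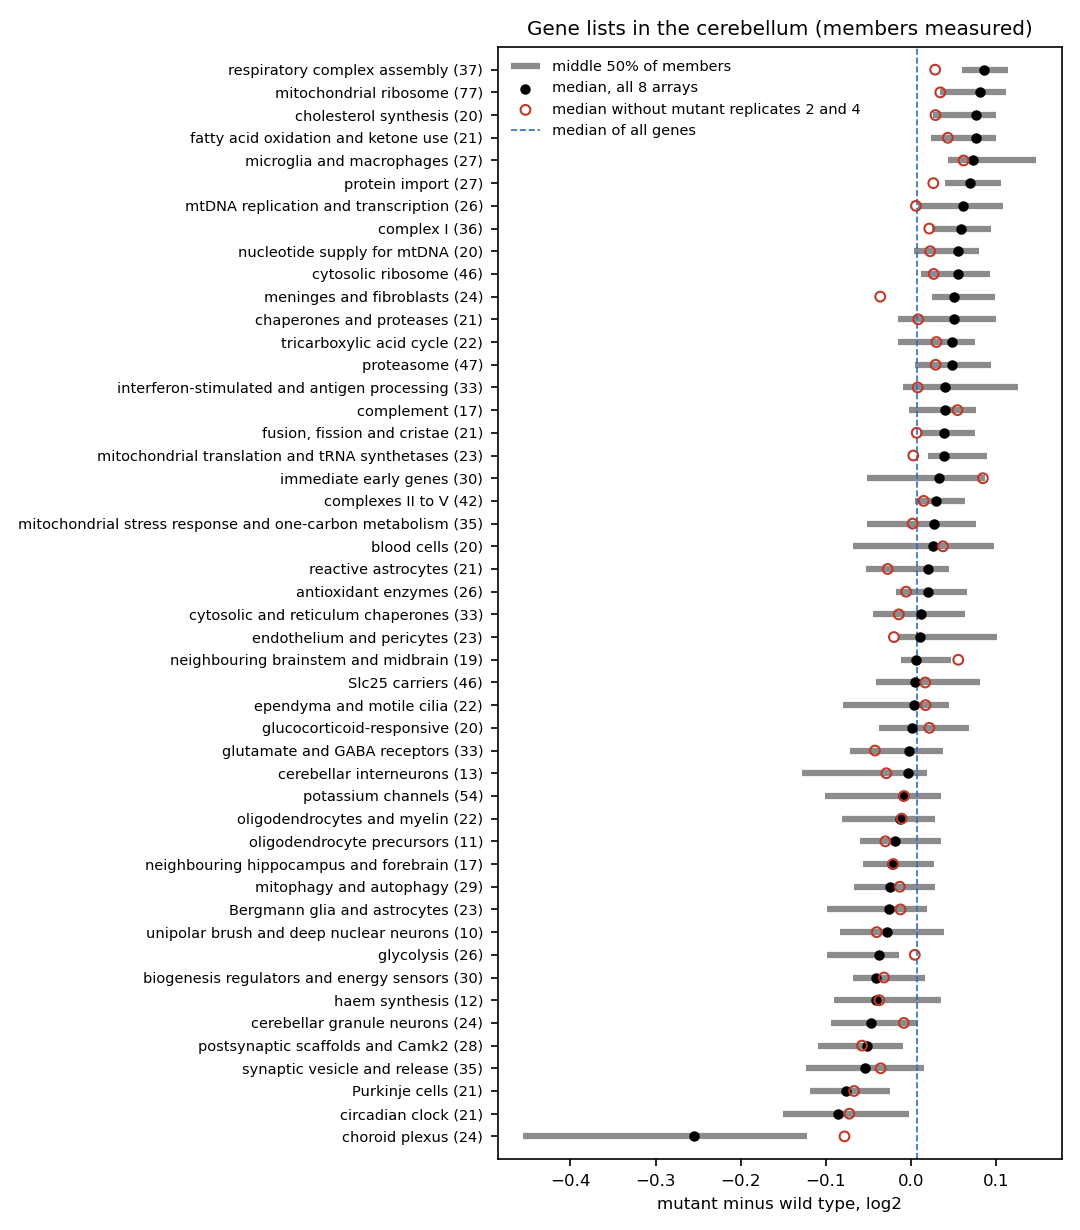
Median difference between mutant and wild-type cerebellum (x axis, log2) for each of 48 gene lists with at least 5 measured members, given in brackets. Filled circles are medians over all 8 arrays, grey bars the middle 50% of members, open circles the medians without mutant replicates 2 and 4, and the dashed line the median of all genes, 0.0074. The mitochondrial lists on the right move towards the line without those arrays (mitochondrial ribosome from 0.081 to 0.034), as does the choroid plexus on the left (from -0.256 to -0.078).

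Lists outside mitochondria lay in the same direction. The cytosolic ribosome had 39 of 46 members above 0 with a median of 0.054, and the proteasome, the main protease of the cytosol, had 36 of 47 with 0.048. Without mutants 2 and 4 these were 34 of 46 with 0.026 and 32 of 47 with 0.029. Without wild type 2 alone the cytosolic ribosome median was 0.023, and without wild type 3 alone the proteasome median was 0.037. Rpl27a differed by 0.23 (SE 0.079), Rps27 by 0.17 (SE 0.066), Psma4, a core subunit of the proteasome, by 0.20 (SE 0.058) and Psmg1, which helps assemble it, by 0.26 (SE 0.080). On the arrays, both lists were highest on mutant 2, at 0.07 and 0.07, and next on wild type 1, at 0.06 and 0.06.

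In the mitochondrial stress response 0 of 35 measured genes had an unadjusted p under 0.05, beside 5.39% of all genes. Of the 35 members of this stress and one-carbon list, 22 lay above 0, with a median of 0.027, or 0.0018 without mutants 2 and 4. Fgf21, the hormone released by muscle with mitochondrial disease, lay at 0.06, 0.11, 0.24 and -0.15 in mutants and at -0.10, 0.17, -0.06 and -0.15 in wild types. The groups overlapped widely, and the difference was 0.10 (95% interval -0.12 to 0.32). Atf4, the transcription factor of the response, differed by 0.08 (-0.06 to 0.22). Its target Asns, asparagine synthetase, differed by 0.06 (-0.07 to 0.18).

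Mthfd2, a mitochondrial enzyme of the folate cycle, was highest on mutant 2, at 0.23, and differed by 0.16 (-0.01 to 0.34). Its 2 probe sets lay at 0.225 and 0.101. Phgdh and Psat1, which begin serine synthesis, differed by -0.003 and 0.019. Trib3, a kinase-like inhibitor in the response, differed by -0.05. Aldh18a1, of proline synthesis, differed by -0.13 (-0.27 to 0.01) with all 5 probe sets below 0. The largest difference of the list was that of Nupr1, a stress-induced nuclear protein, at 0.293, and its 95% interval reached 0.875. The lowest end of an interval in the list was -0.531, for Cebpb, a partner of Atf4. Gdf15, the other hormone of the response, had no value among the genes analysed.

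Pathways of fuel use were mixed. The tricarboxylic acid cycle had 16 of 22 members above 0, with a median of 0.048, or 0.030 without mutants 2 and 4, and Pdhb, of pyruvate dehydrogenase, differed by 0.14 (SE 0.069). Fatty acid oxidation and ketone use had 16 of 21 above 0, with a median of 0.076, or 0.043 without them. Etfa, which passes electrons from fatty acid oxidation to the chain, differed by 0.19 (SE 0.059), and Slc25a20, the carnitine carrier, by 0.19 (SE 0.079). Cpt1c, the neuronal relative of the carnitine palmitoyltransferases, was lower without overlap, by -0.21 (SE 0.112), with wild type 3 at 0.47.

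Glycolysis lay the other way, with 20 of 26 members below 0 and a median of -0.038. Hk1, the hexokinase of brain, lay at 0.06, -0.36, 0.06 and -0.27 in mutants and at -0.15, 0.12, 0.25 and -0.04 in wild types. Mutants 2 and 4 were the low arrays, and the difference of -0.17 (SE 0.094) became 0.014 without them. Slc2a3, the neuronal glucose transporter, differed by -0.18 (SE 0.095), or 0.0058 without them, and Eno2, the neuronal enolase, by -0.17 (SE 0.086). The list median was 0.0043 without them.

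Regulators of mitochondrial number had 20 of 30 members below 0, with a median of -0.041. Ppargc1a, the coactivator that drives biogenesis, differed by 0.03 (95% interval -0.11 to 0.17). Prkaa2, a catalytic subunit of the AMP-activated kinase, lay lower without overlap, by -0.13 (SE 0.060), with all 3 probe sets below 0. Tsc2 and Fkbp8, which restrain mTOR signalling and recruit autophagy proteins to mitochondria respectively, differed by -0.21 (SE 0.093) and -0.22 (SE 0.107). Both were high on wild type 3, at 0.46 and 0.59. Mitophagy and autophagy genes had a median of -0.025.

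Cholesterol synthesis had 17 of 20 members above 0 and a median of 0.076, or 0.029 without mutants 2 and 4, yet its regulator Srebf2 lay at -0.21 (SE 0.102) and Dhcr7, the last reductase, at -0.21 (SE 0.092). Antioxidant enzymes had a median of 0.020, which was -0.0027 without mutant 2 and -0.0059 without mutants 2 and 4. Sod3, the extracellular superoxide dismutase, lay at -0.68 on mutant 4 and differed by -0.28 (SE 0.157).

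Clock genes lay lower in mutants. Of 21 measured members 16 were below 0, with a median of -0.086, and -0.073 without mutants 2 and 4. At an unadjusted p under 0.05 there were 2 of 21 lower, beside 2.24% of all genes, and 0 higher, beside 3.15%. For 1 member, lower in mutants, the groups did not overlap, beside 1.02% of all genes. Per3, a repressor of the clock, was read by 6 probe sets, all below 0. It lay at -0.08, -0.18, -0.03 and -0.09 in mutants and at 0.10, 0.11, -0.05 and 0.21 in wild types. The groups met at wild type 3, and the difference was -0.19 (SE 0.063).

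Per2 lay at -0.36, -0.36, 0.26 and -0.11 in mutants and at -0.05, 0.56, 0.50 and -0.15 in wild types, with a difference of -0.35 (SE 0.157). Per1 lay at -0.06, -0.29, 0.25 and -0.28 in mutants and at 0.05, 0.44, 0.51 and -0.05 in wild types, with a difference of -0.33 (SE 0.197). In both, mutant 3 was high among mutants and wild types 1 and 4 were low among wild types. Nr1d1, which represses Arntl, differed by -0.27 (SE 0.142), and Tef, an output factor that rises and falls with the clock, by -0.14 (SE 0.068). Arntl and Clock, the activators, differed by 0.00 and -0.02. The time of day at which the tissue was taken is not given in the sources used here, and its part in these values was not tested. Fos, which neurons induce within minutes of activity, ran from -1.53 to 1.20 in mutants and from -1.98 to 1.24 in wild types.

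The clock activators bind the E-box, so the promoters of 2 clock genes of small p are shown, with capitals for the same motifs. Per3 at chr4:151044616-151044915, minus strand, held no match. Tef at chr15:81802423-81802722, plus strand, held an E-box at -127; of its 2 windows in the table, the one with a match is given.
Per3: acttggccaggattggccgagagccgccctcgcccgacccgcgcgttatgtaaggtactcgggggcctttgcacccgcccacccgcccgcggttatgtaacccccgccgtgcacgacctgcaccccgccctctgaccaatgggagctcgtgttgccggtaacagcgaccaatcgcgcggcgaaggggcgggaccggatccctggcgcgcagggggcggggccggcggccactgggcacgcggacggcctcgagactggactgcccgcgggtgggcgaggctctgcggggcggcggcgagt
Tef: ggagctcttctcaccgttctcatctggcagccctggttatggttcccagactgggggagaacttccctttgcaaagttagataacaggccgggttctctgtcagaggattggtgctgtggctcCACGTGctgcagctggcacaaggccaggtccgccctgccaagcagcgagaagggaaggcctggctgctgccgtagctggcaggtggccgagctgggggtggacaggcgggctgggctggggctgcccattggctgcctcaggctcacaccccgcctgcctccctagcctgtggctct
Of 18 clock genes with a promoter in the table, 5 (27.8%) held the E-box, against 8.09% of all genes. The share was not particular to the clock. Nucleotide supply for mitochondrial DNA also had 5 of 18 (27.8%), and haem synthesis had 3 of 11 (27.3%). Shares in the other lists were lower, down to 0.0% in lists such as the choroid plexus. Per2 has no entry.

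Neuronal genes lay slightly lower in mutants. Synaptic vesicle and release genes had 23 of 35 members below 0, with a median of -0.054, and postsynaptic scaffolds with Camk2 kinases had 22 of 28, with -0.052. Their list means on wild type 3 were 0.15 and 0.14, the highest of the 8 arrays, and that array also had the widest spread of values, whose part here was not tested. Vamp2, the vesicle protein that drives fusion, lay at 0.04, -0.38, 0.20 and -0.26 in mutants. In wild types it lay at -0.09, 0.20, 1.12 and -0.03, and the difference was -0.40 (SE 0.193). Dnm1, the dynamin of vesicle recycling, was likewise high on wild type 3, at 0.88, and differed by -0.35 (SE 0.171).

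Slc17a7, a vesicular glutamate transporter of granule cells, differed by -0.30 (SE 0.145). Dlgap4, a postsynaptic scaffold, differed by -0.39 (SE 0.126), with mutant 3 at -0.37 and wild type 3 at 0.66. Dlg4, the scaffold PSD-95, differed by -0.22 (SE 0.091) with all 3 probe sets below 0, and Camk2b, a calcium-dependent kinase, by -0.20 (SE 0.089). Glutamate and GABA receptors had a median of -0.0017 and potassium channels of -0.0087, and both changed sign without single arrays, to 0.0058 without mutant 1 and 0.0118 without mutant 4.

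Purkinje cell genes had 17 of 21 members below 0 and a median of -0.076. In the hippocampus arrays the median of the same list was -0.111, so the lower values were not particular to the cerebellum. Pcp2, the most specific of them, lay between -0.20 and 0.07 in mutants and between -0.01 and 0.08 in wild types. Its difference was -0.10, with an SE of 0.065 when the cerebellum arrays are fitted alone. Its 3 probe sets lay at -0.007, -0.034 and -0.261, so most of that difference came from 1 of them. Calb1, the calcium buffer calbindin, differed by -0.03 (SE 0.077 on these arrays alone). Atp2a3, a calcium pump, differed by -0.28 (SE 0.121), or -0.12 without mutants 2 and 4. Rora, a nuclear receptor that Purkinje cells need, and which is also in the clock list, was lower without overlap, by -0.15 (SE 0.093). Of its 9 probe sets 8 lay below 0. The lowest were at -0.52, -0.46 and -0.21, and the rest lay between -0.09 and 0.04.

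Granule neuron genes had 16 of 24 members below 0, with a median of -0.048, or -0.0086 without mutants 2 and 4 and 0.0025 without wild type 3. In the hippocampus arrays the median of this list was -0.116. Gabra6, the receptor subunit that marks granule neurons, lay between -0.11 and 0.09 in mutants and between -0.07 and 0.07 in wild types, a difference of -0.0023 (SE 0.062 on the cerebellum arrays alone). Over all 16 arrays the SE of Gabra6 is 1.08, since that fit takes in the spread of the hippocampus arrays. Among interneuron genes, Glra1, a glycine receptor subunit, was lower without overlap, by -0.21 (SE 0.073). Its 2 probe sets lay apart, at -0.03 and -0.39.

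Glial lists lay near 0. Myelin genes had a median of -0.013, which was 0.0042 without mutant 4 and 0.0139 without wild type 3, and Mbp, myelin basic protein, differed by -0.01 (95% interval -0.12 to 0.10). Cnp, another myelin protein, differed by -0.16 (SE 0.124). Astrocyte genes had a median of -0.026. Gfap, the astrocyte filament that increases in gliosis, lay at 0.28, 0.03, -0.10 and -0.54 in mutants and at 0.10, 0.20, 0.47 and -0.47 in wild types. Both groups spanned most of the range, and the difference was -0.15 (95% interval -0.70 to 0.39). The 3 probe sets of Gfap lay at -0.35, -0.33 and 0.22. Slc4a4, a bicarbonate transporter of astrocytes, differed by -0.19 (SE 0.066), with all 5 probe sets below 0. Fabp7, a fatty acid carrier of Bergmann glia, differed by 0.39 (SE 0.175), with mutant 2 at 0.62 and wild type 2 at -0.66.

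Microglial genes lay above 0 in 25 of 27 members, with a median of 0.073, or 0.062 without mutants 2 and 4, and 0.025 without mutant 2 alone to 0.152 without wild type 1. The list means were 0.12, 0.29, -0.09 and -0.12 in mutants and 0.14, 0.02, -0.17 and -0.17 in wild types. In both genotypes the older pair, replicates 1 and 2, was above the younger pair, and the groups overlapped. Aif1, the microglial protein Iba1, lay at 0.00, 0.27, 0.02 and 0.00 in mutants and at -0.00, -0.18, -0.32 and -0.16 in wild types. The groups touched at 0 without overlapping, and the difference was 0.24 (SE 0.080). Siglech, a microglial lectin, differed by 0.19 (SE 0.097) and Fcgr3, an Fc receptor, by 0.23 (SE 0.152).

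Ptprc, the common leukocyte antigen, differed by 0.26 (SE 0.118). Interferon-stimulated and antigen-processing genes had 22 of 33 above 0, with a median of 0.040. That median was 0.0077 without mutants 2 and 4 and -0.0026 without wild type 3. Tapbp, which loads peptides on class I molecules, was lower without overlap, by -0.18 (SE 0.077). Emcn, an endothelial sialomucin, differed by 0.24 (SE 0.095), with mutant 2 at 0.37. Meningeal and fibroblast genes averaged 0.30 on mutant 2 and -0.06 to 0.08 on the other arrays.

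**Figure D5:**
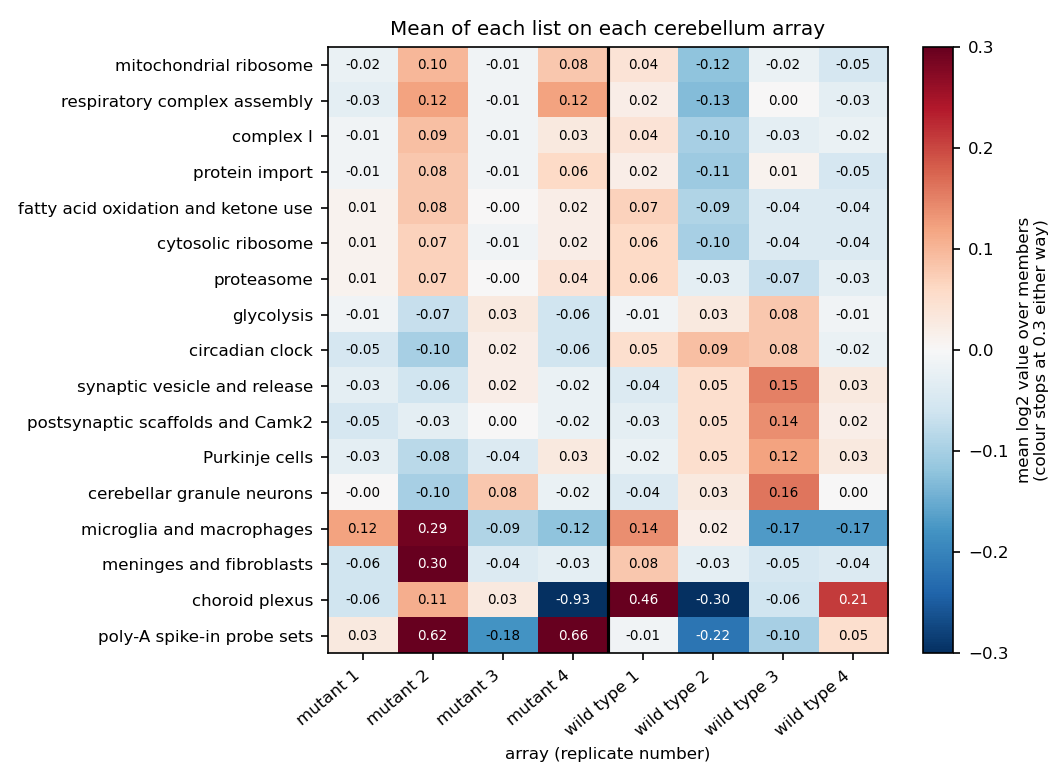
Mean log2 value of 16 gene lists and of poly-A spike-ins (y axis) on the 4 mutant and 4 wild-type cerebellum arrays (x axis), relative to the median array, with colour limited to 0.3 either way. The mitochondrial ribosome (0.10 and 0.08), respiratory complex assembly and protein import lists are highest on mutants 2 and 4, where the spike-in means are 0.62 and 0.66. On mutant 4 and wild type 1, complex I is at 0.03 and 0.04, and fatty acid oxidation at 0.02 and 0.07. The choroid plexus list is at -0.93 on mutant 4.

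Choroid plexus genes, from the tissue that secretes cerebrospinal fluid and adjoins the cerebellum in the fourth ventricle, gave the list median farthest from that of all genes, -0.256, with 22 of 24 members below 0. The list means were -0.06, 0.11, 0.03 and -0.93 in mutants and 0.46, -0.30, -0.06 and 0.21 in wild types. Mutant 4 stood apart and the other 7 arrays overlapped; without it the median was -0.036. Ttr, the thyroid hormone carrier that the plexus makes in bulk, lay at -0.02, 0.02, 0.08 and -3.02 in mutants and at 0.25, -0.23, -0.09 and 0.16 in wild types. Its difference was -0.76 (SE 0.783), and 0.0088 without mutants 2 and 4. F5, a clotting factor made by the plexus, lay at -1.27 on mutant 4, and Kl, the ageing-related protein klotho, at -0.96. Ace, the angiotensin-converting enzyme, was lower without overlap, by -0.24 (SE 0.076).

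Genes of the pituitary and of neighbouring tissue varied between arrays of either genotype; the genes named next were chosen after their values were seen. Prl, prolactin, ran from -3.54 to 3.47 in mutants and from -3.86 to 2.16 in wild types, and Gh, growth hormone, from -2.19 to 0.96 and from -2.02 to 1.58. Pomc, the precursor of corticotropin, was at 2.72 on wild type 4 and at most 0.67 elsewhere. Spink8, a protease inhibitor known from hippocampal neurons, was at 3.24 on mutant 2 and at most 0.60 elsewhere. The list of hippocampal and forebrain genes had a mean of 0.06 on mutant 2. Xist, from the inactive X chromosome, ran from -0.23 to 0.24 over the 8 arrays, and the Y-linked genes Eif2s3y, Kdm5d and Uty from -0.12 to 0.30, so no array stood apart by sex.

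The genotype difference was also set against that in the hippocampus, by an interaction term in the same fit. That fit holds no term for animal, since the labels do not say which cerebellum and hippocampus samples share one. No gene differed between the regions at an adjusted p under 0.05 (0 of 18168, 0.0%), and the smallest adjusted p was 0.671. At an unadjusted p under 0.05 there were 972 genes (5.35%). Leo1 and Gm10710 shared the smallest value. Leo1 differed by 0.24 in cerebellum and by -0.15 in hippocampus, where mutants lay at -0.15 to 0.00 and wild types at -0.01 to 0.15. Gm10710 differed by -0.30 in cerebellum and by 0.24 in hippocampus. For Alas2, at -0.97 and -1.19, the interaction had an adjusted p of 0.939. None of the 24 genes of smallest p in the cerebellum passed this test of a difference between regions.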

How the data were processed

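RNA of 16 samples was labelled with biotin and hybridised to Affymetrix arrays, and GCOS 4.0 was used per the submitters' processing notes. How probes were summarised and arrays normalized, and the log base, are not given in the sources used. The values the authors deposited were taken as log2. In each region the median over its 8 arrays was within 1e-05 of 0 for every probe set analysed, so no filter on dim probes was possible. Of 45101 probe sets, 64 controls and 133 others with an empty value were left out. Of the 44904 left, 34843 had 1 symbol in the GEO platform annotation, 931 several and 9130 none, and those with 1 symbol were averaged into 18168 genes, of which 9192 rest on 1 probe set. Entrez IDs matched 18008 genes in RefSeq.

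Samples were grouped by title; for hippocampus samples 1 free-text label says cerebellum, and the title, source and tissue labels were followed. limma 3.58.1 in R 4.3.3 fitted 1 mean per genotype and region to all 16 arrays (12 residual degrees of freedom), with Benjamini-Hochberg adjusted p-values (threshold 0.05) over every gene. The fit was tested on simulated data. The number of arrays limits the precision. No label ties samples to animals, so the p-values reflect spread between samples.

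Named genes were Twnk, the 12 of smallest p and the 8 of largest difference without overlap in each direction, up to 4 members of smallest p in each of 50 lists, and defining genes such as Fgf21 and Pcp2. A few others are named for their role. Promoters were to be shown for the 3 lists with medians farthest from all genes (choroid plexus, clock, Purkinje cells). Of these, only those of the clock are shown. The promoters of Mrpl32 and Mrpl36 fall outside that rule, since the mitochondrial ribosome is not among the 3 lists. The members and lists were chosen with earlier results of these data known. Alternatives were age, replicate block or set as terms, other normalizations, array weights, a robust fit, medians over probe sets, single probe sets, cerebellum alone and leaving out arrays. Age with its own slope in each region was added after seeing the data.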

Additional observations from a re-analysis of the deposited data

Results flagged for a closer look

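The values here are those of 1 array lying far from the other 3 of its group, which chance gives in about 1 in 20 groups; it was seen in 24 of 354 groups checked (6.78%). On mutant replicate 2, list means lay apart for meninges and fibroblasts (0.30), oligodendrocyte precursors (0.09) and the mitochondrial stress response with one-carbon metabolism (0.07). Genes apart on that array were Spink8 (3.24), Fabp7 (0.62), S100a8 (0.61), Emcn (0.37), Aif1 (0.27) and Rora (-0.05). On mutant replicate 4 they were the choroid plexus list (-0.93) and Ttr (-3.02).

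On mutant replicate 3, Dlgap4 (-0.37) and Ptprc (-0.08) lay apart, and on mutant replicate 1 the glutamate and GABA receptor list (-0.06). On wild-type replicate 3 the genes were Fkbp8 (0.59), Tsc2 (0.46), Aldh18a1 (0.32) and Atad3a (-0.27), and the lists biogenesis regulators and energy sensors (0.09) and neighbouring hippocampus and forebrain (-0.03). On wild-type replicate 2 they were Fabp7 (-0.66) and Twnk (-0.15), and on wild-type replicate 1 Dguok (0.08) and the meninges and fibroblasts list (0.08).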

How the results depend on the processing

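The count of genes past the adjusted threshold was 0 under each alternative run for the genotype difference in cerebellum. For its difference between regions it was 0 with the replicate block, with quantile normalization and without each cerebellum array, the alternatives run for it. The smallest adjusted p in cerebellum ran from 0.207 (without mutant replicate 1) to 0.980. The 979 genes with an unadjusted p under 0.05 became 587 without mutant replicates 2 and 4 and 541 to 1512 without single arrays. They became 1305 with age as a covariate and 1801 with an age slope per region, added after seeing the data. The labels do not state that replicate numbers pair the samples. Deviations of same-numbered mutants and wild types correlated at -0.192 to 0.048, which cannot show whether those samples were handled together. With the number as a block 962 genes had an unadjusted p under 0.05. Of 912 list medians under alternatives, 898 stayed within 1 SD of the list means between arrays, and 70 changed sign, in 23 of 48 lists. Of 2451 gene differences, 44 changed sign, in 18 of 129 genes, none past the threshold in any setting. The cause was not tested for any of these.

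Without mutant replicates 2 and 4, list medians were 0.0057 for mitochondrial DNA replication and transcription, 0.0223 for nucleotide supply, 0.0083 for chaperones and proteases, -0.0424 for glutamate and GABA receptors and -0.0292 for cerebellar interneurons. Gene differences then changed sign for Rrm2b (-0.023), Asns (-0.004), Slc2a3 (0.006), Hk1 (0.014), Ppargc1a (-0.041), Gabra6 (0.007), Gfap (0.017), Mbp (0.026), Ttr (0.009), Hba-a1 (0.072) and Hba-a2 (-0.008). With age as a covariate the cerebellar interneuron median was -0.0332, and signs changed for Pcp2 (0.144), Calb1 (0.005) and Gabra6 (0.414). In that fit the age slope is shared between the regions, so the spread of the hippocampus arrays enters these values. With an age slope per region the sign changed for Hba-a1 (0.018). It changed with quantile normalization for Prl (0.069), Phgdh (0.010) and Gabra6 (0.000 after rounding), with array weights for Gfap (0.041) and Phgdh (0.034), and with medians over probe sets for Calb1 (0.022).

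Leaving out 1 array at a time, list medians ran from 0.0137 to 0.0595 for chaperones and proteases, 0.0016 to 0.0262 for Slc25 carriers, 0.0328 to 0.0702 for the tricarboxylic acid cycle, -0.0472 to 0.0175 for cerebellar interneurons and -0.0422 to 0.0248 for neighbouring hippocampus and forebrain. Gene differences ran from -0.003 to 0.075 for Ppargc1a, -0.092 to 0.017 for Calb1, -0.032 to 0.034 for Gabra6, -0.029 to 0.012 for Mbp, -1.028 to 0.006 for Ttr, -0.138 to 0.038 for Hba-a1, -1.31 to 1.026 for Prl, -0.081 to 1.068 for Spink8, -0.095 to 0.977 for Fos, -0.042 to 0.060 for Phgdh and -0.008 to 0.034 for Psat1.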
